A study of Mus musculus with 14 samples.

Results

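The brain's extracellular matrix was followed here through 10 genes, measured by RNA sequencing in mouse hippocampus: the lecticans Acan, Bcan and Ncan, the link proteins Hapln1, Hapln2 and Hapln4, the tenascins Tnr and Tnc, and the matrix proteases Adamts1 and Adamts4. They were taken by symbol from the deposited gene table, which held all 10 among 22485 gene symbols. The study asked how enzymatic dissociation alters the transcriptome of hippocampal tissue, and sampled 3 subregions, CA1, CA3 and the dentate gyrus (DG), of 1 wild-type C57BL/6 mouse. Dissociated tissue was incubated for 75 min with 1 mg/ml pronase (a mixture of bacterial proteases) in artificial cerebrospinal fluid, vortexed and centrifuged, and broken up with a pipette tip in fluid holding 1% serum (FBS), whereas control tissue was homogenised directly. There were 7 dissociated libraries (3 of CA1, 2 of CA3, 2 of DG) and 7 control libraries (3 of CA1, 2 of CA3, 2 of DG). All came from the same animal, so the p-values speak of variation among its tissue samples and not among animals.

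Lecticans are chondroitin sulfate proteoglycans that bind the long sugar hyaluronan at one end and tenascins at the other, while link proteins lock the hyaluronan bond. Around some neurons, above all parvalbumin interneurons, these molecules condense into perineuronal nets, and a looser form fills the space around synapses and the nodes of Ranvier. ADAMTS proteases cut the lectican core proteins between their globular ends.

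The cleavage region of a substrate and the catalytic centre of both proteases are shown first, because they define how the members are linked to each other. Sequences were read from GRCm38 with the GENCODE M21 annotation, 5′ to 3′ on the coding strand. In Acan (chr7:79091037-79091090, plus strand, exon 7) and Bcan (chr3:87994182-87994235, minus strand, exon 7) the capitals mark the codons on both sides of the bond that ADAMTS4 is known to cut, at residues 392 and 393 of aggrecan and residues 395 and 396 of brevican. For Adamts1 (exons 3 and 4, chr16:85799536-85799569 and chr16:85799167-85799213, minus strand) and Adamts4 (exons 3 and 4, chr1:171253186-171253219 and chr1:171253893-171253939, plus strand) the capitals mark the 11 codons of the zinc-binding motif of metalloproteases, joined across the intron.
Acan: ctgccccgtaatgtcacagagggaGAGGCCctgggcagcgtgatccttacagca
Bcan: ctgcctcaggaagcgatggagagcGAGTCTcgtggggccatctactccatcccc
Adamts1: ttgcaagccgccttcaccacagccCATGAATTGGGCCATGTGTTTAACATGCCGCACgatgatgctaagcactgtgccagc
Adamts4: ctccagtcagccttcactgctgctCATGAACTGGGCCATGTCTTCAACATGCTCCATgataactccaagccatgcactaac
The windows of the 2 proteases shared 56 of 81 bases, and 27 of 33 in the zinc-binding codons.

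Total estimated counts ranged from 65887 to 4782767 in dissociated and from 1285654 to 6646655 in control libraries, and 3 dissociated libraries (CA1 replicates 2 and 3, DG replicate 3) held fewer than 500000. Where a gene is at 0, a true level of up to 3 counts is possible, or 45.5 CPM (counts scaled to a common library total) at the lowest depth and 0.451 CPM at the highest, counting error alone being considered. Mitochondrially encoded genes took 6.18% to 14.4% of counts in dissociated and 4.08% to 7.07% in control libraries. Markers of the pyramidal layers went against the label in 3 libraries. The library labelled CA1 dissociated replicate 3 held 502 CPM of CA3 markers and 139 CPM of CA1 markers. The libraries labelled CA3 dissociated replicate 1 and CA3 control replicate 1 held 94.99 and 54.9 CPM of CA3 markers and 1378 and 1764 CPM of CA1 markers. The library labelled DG control replicate 2 held 457 CPM of CA3 markers beside 532 CPM of DG granule cell markers, against 174 and 1823 CPM in DG control replicate 3. The tests below were therefore repeated without the first 3 of these libraries. The shallowest library, DG dissociated replicate 3, also stood apart, with 2513 CPM of pericyte and smooth muscle markers against at most 236 CPM in any other library. Nearly all of this was Acta2, an actin of smooth muscle chosen here after its values were seen, with 2497 CPM from 160 counts, while 5 of the 7 markers were at 0 there. The differences over all regions were 1.67 for Adamts4 (adjusted p = 0.0581, not called), 1.52 for Hapln2, 0.99 for Adamts1 and 0.31 for Bcan without it, and Hapln1 was −0.32 in place of 0.13.

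After dissociation 1 of the 9 tested genes was called. Adamts4 rose by 1.73 ± 0.38 on the log2 scale (SE), with an adjusted p of 0.0280, and averaged 42.9 CPM in dissociated and 12.8 CPM in control libraries. Hapln2 and Adamts1 had the next largest differences, 1.65 ± 0.62 and 0.88 ± 0.31, and did not pass the adjusted threshold of 0.05. The 3 lecticans, Tnr and Hapln1 had differences between −0.19 and 0.44. Of 13063 genes tested by edgeR's quasi-likelihood test in a model of region and treatment, 95 were called higher (0.727%) and 6 lower (0.0459%), and the median difference of all genes was −0.11. Tnc had 29 counts in all and was not tested, so 9 members entered the test and 1 of them was called, as by DESeq2. The test of whether a treatment difference varied with region called none of 13063 genes (0%) with edgeR, where 1112 had an unadjusted p under 0.05, against 28 genes called by DESeq2. It called no member with either tool, and Ncan alone had an unadjusted p under 0.05 (adjusted p = 0.507).

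**Figure D1:**
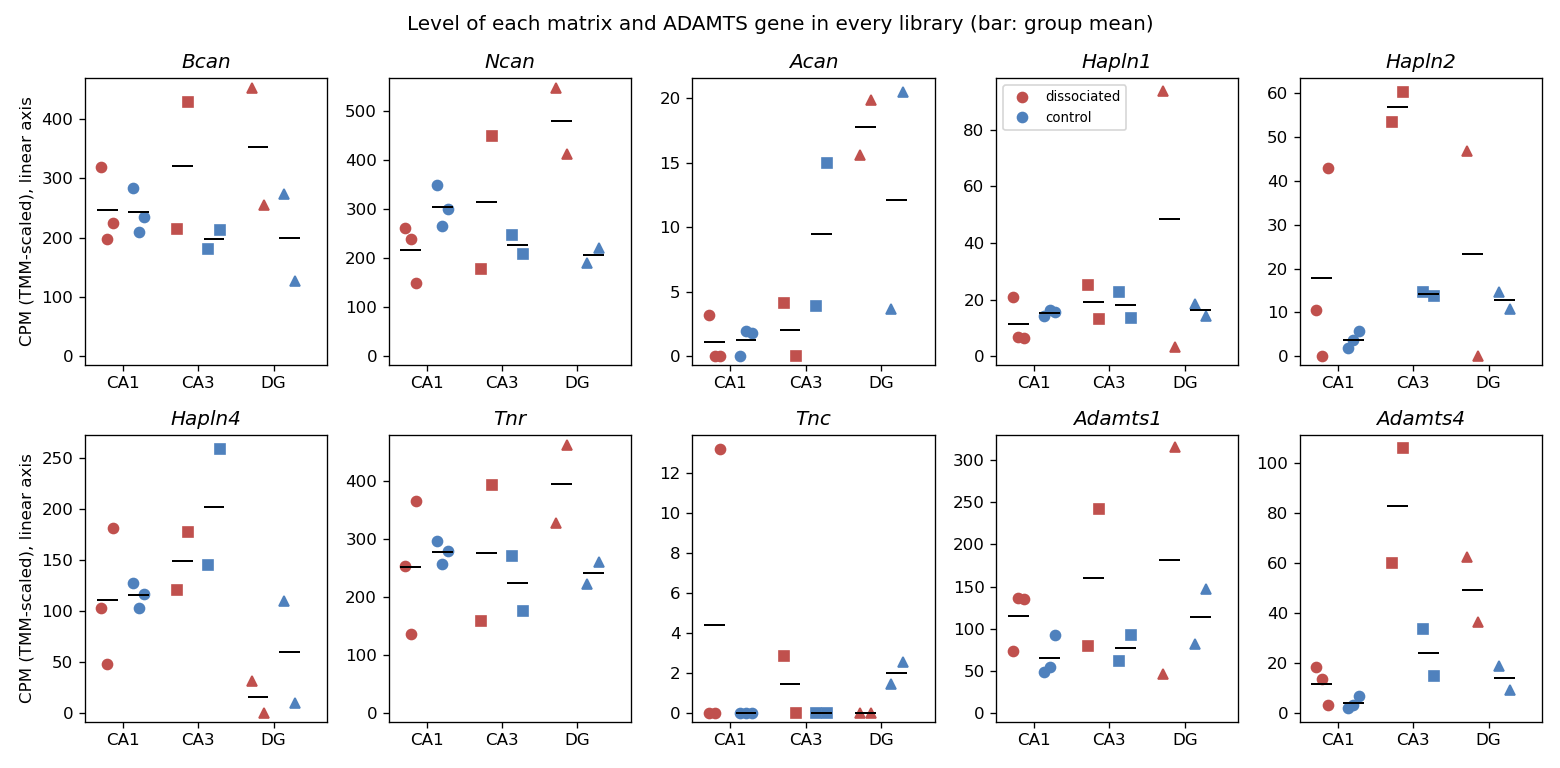
Level of each of the 10 genes in every library, in CPM scaled by TMM on linear axes that differ between panels; red points are dissociated and blue points control libraries, grouped by labelled region, and bars are group means. Adamts4 stands higher in both dissociated libraries of CA3 and of DG than in the control libraries of the same region. The same holds in CPM for Bcan and Hapln2 in CA3 and for Ncan and Tnr in DG. In TPM Bcan ran the other way in CA3 and Tnr overlapped in DG. Ncan in CA1 and the sparse Tnc in DG lie lower in dissociated than in control libraries. The share of all genes that stand apart in this way was not counted, so these separations are only described. Over the 7 dissociated and 7 control libraries, Adamts4, Bcan, Ncan and Tnr all overlap.

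None of the lecticans passed the test of treatment. Bcan encodes brevican, a lectican of adult brain made by astrocytes, oligodendrocyte precursors and neurons. It was detected in every library, with a lowest, median and highest level of 198, 255 and 453 CPM in dissociated libraries, against 126, 214 and 284 CPM in control libraries. Over all regions the groups overlapped, and the difference was 0.44 ± 0.24 (adjusted p = 0.463). In CA3 the dissociated libraries (214.2 and 429 CPM) lay above the control libraries (181 and 213.8 CPM), the nearest of them narrowly. In TPM, a measure corrected for transcript length, the order was the reverse. There the dissociated CA3 libraries (116 and 226 TPM) lay below the control CA3 libraries (236 and 249 TPM), so no direction is drawn. How many of all genes stand apart within a region was not counted, here or for the members below. Ncan encodes neurocan, a lectican of the diffuse matrix that is abundant in the developing brain. It had 262, 239 and 148 CPM in dissociated CA1, against 348, 265 and 300.4 CPM in control CA1. In CA3 it had 178 and 449 CPM in dissociated libraries, against 247 and 208 CPM in control libraries. In DG it had 546 and 412 CPM in dissociated libraries, against 191 and 220.0 CPM in control libraries. Dissociated libraries thus lay below control in CA1 and above it in DG, with overlap in CA3. Its difference was 0.26 ± 0.26 over all regions (adjusted p = 0.727) and 1.19 ± 0.43 within DG (adjusted p = 0.219), where DG dissociated replicate 3 rested on 35 counts of Ncan and the difference without it was 0.98 (adjusted p = 0.290).

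Acan encodes aggrecan, the lectican that builds the core of perineuronal nets. It was sparse, with 231 counts in all 14 libraries. Its level was 3.20, 0 and 0 CPM in dissociated CA1, against 0, 1.92 and 1.79 CPM in control CA1. In CA3 it was 4.11 and 0 CPM in dissociated libraries, against 3.88 and 15.0 CPM in control libraries. In DG it was 15.6 and 19.8 CPM in dissociated libraries, against 3.67 and 20.5 CPM in control libraries. The treatment groups overlapped in each region, and DG libraries reached the highest levels under both treatments. However, the 15.6 CPM in DG rested on 1 count. The DG control library at 3.67 CPM lay below both CA3 control libraries. The dissociated CA1 libraries at 0 were shallow, and counting error alone allows up to 22.2 and 9.97 CPM there. The treatment difference of −0.19 ± 0.83 (adjusted p = 0.952) has a standard error well above its own size, and a change was not detectable at this depth.

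None of the link proteins passed the test of treatment. Hapln2, also called Bral1, is a link protein of the nodes of Ranvier in myelinated fibres. It had 10.5, 0 and 42.9 CPM in dissociated CA1, against 1.79, 3.70 and 5.82 CPM in control CA1. In CA3 it had 53.5 and 60.4 CPM in dissociated libraries, against 14.6 and 13.8 CPM in control libraries. In DG it had 46.8 and 0 CPM in dissociated libraries, against 14.7 and 10.9 CPM in control libraries. The groups were apart in CA3 and overlapped in CA1 and DG, and the 46.8 CPM in DG rested on 3 counts. The difference of 1.65 ± 0.62 (adjusted p = 0.261) was 1.03 without the 3 libraries that went against their region markers (adjusted p = 0.637), and 2.07 and called without DG dissociated replicate 4 (adjusted p = 0.0164), the deeper of the libraries at 0. Over all alternatives the adjusted p lay between 0.0164 and 0.967. Within regions it was 2.23 ± 0.89 in CA1 (adjusted p = 0.355) and 2.00 ± 0.92 in CA3 (adjusted p = 1.00). In DG the pooled level was 4.51 CPM in dissociated libraries (3 counts) and 11.9 CPM in control libraries, a ratio of 0.378 with a 95% exact Poisson interval from 0.0780 to 1.11 that covers counting error only. All 3 counts came from DG dissociated replicate 3, and without DG dissociated replicate 4 the ratio was 3.81, so no direction is drawn in DG.

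Hapln4, also called Bral2, is a link protein of perineuronal nets that binds beside brevican. It had 103, 47.9 and 181 CPM in dissociated CA1, against 128, 103 and 117 CPM in control CA1. In CA3 it had 120.5 and 178 CPM in dissociated libraries, against 146 and 259.6 CPM in control libraries. In DG it had 31.2 and 0 CPM in dissociated libraries, against 110.0 and 9.93 CPM in control libraries. The groups overlapped in every region, and the treatment difference was −0.59 ± 0.48 (adjusted p = 0.651). The 2 DG control libraries lay far apart, and the one with 110.0 CPM is the library with the most CA3 marker RNA in DG. Dissociated DG held 2 counts of Hapln4 in all, 3.01 CPM pooled against 28.8 CPM in control DG, a ratio of 0.105 with a 95% exact Poisson interval from 0.0127 to 0.378 that leaves out the spread between libraries. Of the 212 counts in control DG, 150 came from DG control replicate 2. The pooled ratio was 0.295 without that library, 0.0258 without DG control replicate 3 and 1.06 without DG dissociated replicate 4. The fitted DG difference was −4.03 ± 1.48 and not called (adjusted p = 0.232), and it ran from −10.14 to −0.88 when 1 library was left out. Interneuron markers had sums of 249.7 and 446 CPM in dissociated DG, against 945 and 475 CPM in control DG, where the higher sum was that of DG control replicate 2. Of these 8 markers, 7 had negative differences within DG, with a median of −2.36 beside −0.27 for all genes. EdgeR called none of them (3 at an unadjusted p under 0.05) and DESeq2 called 1, and their part in the Hapln4 difference was not tested. Hapln1, the link protein found with aggrecan in cartilage and in nets, had a lowest, median and highest level of 3.31, 13.02 and 93.7 CPM in dissociated libraries, against 13.3, 15.7 and 22.8 CPM in control libraries. Its difference was 0.13 ± 0.49 (adjusted p = 0.943), and the 93.7 CPM rested on 6 counts in the shallowest library.

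Of the tenascins, Tnr was detected in every library and Tnc in 4 of 14. Tnr encodes tenascin-R, which ties lecticans together and is made by oligodendrocytes and some neurons. Its lowest, median and highest level was 137, 328 and 463 CPM in dissociated libraries, against 176, 261 and 298 CPM in control libraries. Over all regions the groups overlapped, with a difference of 0.24 ± 0.24 (adjusted p = 0.720). In DG the dissociated libraries (328 and 463 CPM, the first from 21 counts) lay above the control libraries (223 and 261 CPM). In TPM these DG groups overlapped, at 38.0 and 78.3 TPM in dissociated and 35.9 and 50.9 TPM in control libraries. Tnc encodes tenascin-C, a matrix protein of development and injury. It was at 0 in 5 of 7 dissociated and 5 of 7 control libraries, and its counts were 4 and 7 in 2 dissociated libraries, of CA1 and CA3, and 2 and 16 in the DG control libraries. No comparison was made at that depth.

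**Figure D2:**
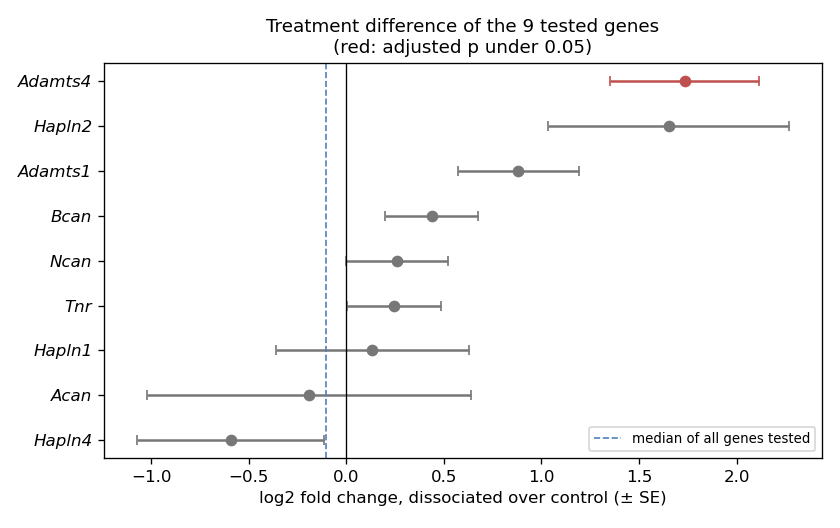
Treatment difference of the 9 tested genes as log2 fold change, dissociated over control, on the horizontal axis; points are estimates over 14 libraries in the model of region and treatment, and bars are ± 1 SE. Adamts4 (red, 1.73) passed the adjusted threshold, the other 8 (grey) did not, and the dashed line at −0.11 is the median of all genes tested.

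The proteases gave the only treatment call. Adamts4 is an aggrecanase that cuts brevican and aggrecan, and in mouse brain it is known from oligodendrocytes. It had 18.5, 13.7 and 3.30 CPM in dissociated CA1, against 2.24, 3.40 and 6.71 CPM in control CA1. In CA3 it had 60.0 and 106 CPM in dissociated libraries, against 33.5 and 15.0 CPM in control libraries. In DG it had 62.4 and 36.4 CPM in dissociated libraries, against 19.1 and 9.45 CPM in control libraries. All dissociated libraries of CA3 and of DG were above the control libraries of their region, and in CA1 the dissociated library with 3.30 CPM, which rested on 1 count, fell within the control range. The 62.4 CPM in dissociated DG rested on 4 counts, and the 13.7 CPM in dissociated CA1 on 2 counts. The mean was 42.9 ± 35.9 CPM in dissociated and 12.8 ± 10.96 CPM in control libraries (SD, n = 7 each). Within regions the difference was 1.76 ± 0.63 in CA1, 1.77 ± 0.65 in CA3 and 1.66 ± 0.77 in DG. None of these passed the threshold, with adjusted p of 0.295, 1.00 and 0.342, and the test of a difference between regions gave an adjusted p of 0.999. The overall difference was 2.14 without the 3 libraries that went against their region markers (adjusted p = 0.0358) and 1.83 without the 3 shallow libraries, where the call was lost (adjusted p = 0.0751). Leaving out 1 library at a time kept the difference between 1.56 and 1.92. The call was lost, with adjusted p from 0.0518 to 0.149, when any of 8 libraries was left out: CA1 dissociated replicate 1, CA1 control replicates 1 and 2, CA3 dissociated replicate 4, CA3 control replicates 1 and 4, DG dissociated replicate 3 and DG control replicate 3. It was lost as well with limma-trend on log2(TPM + 1), where the difference was 1.08 (adjusted p = 0.156); over all alternatives the adjusted p lay between 0.000254 and 0.202.

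Adamts1 is a related aggrecanase that is induced by injury and activity in several tissues. It had 73.8, 137 and 135 CPM in dissociated CA1, against 48.3, 54.8 and 92.2 CPM in control CA1. In CA3 it had 79.4 and 242 CPM in dissociated libraries, against 61.7 and 92.9 CPM in control libraries. In DG it had 46.8 and 316 CPM in dissociated libraries, against 82.1 and 147 CPM in control libraries. The groups overlapped in every region. The difference of 0.88 ± 0.31 had an adjusted p of 0.230.

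Within regions, edgeR called 25 genes in CA1 (0.191%), none in CA3 (0%) and 21 in DG (0.161%), and none of the 9 tested members. Over all genes, 11.2% had an unadjusted p under 0.05 in CA1, 4.00% in CA3 (523 genes) and 14.1% in DG, and DESeq2 called 1.58%, none and 0.796%. Members with an unadjusted p under 0.05 numbered 2 in CA1 and 2 in CA3 (Adamts4 and Hapln2 in both) and 3 in DG (Adamts4, Ncan and Hapln4), and DESeq2 called 0 of 9 in each region.

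Oligodendrocyte markers were higher after dissociation as well. Of 15 markers tested, 10 were called higher and none lower, with a median difference of 1.93. Mbp, a myelin membrane protein, had a difference of 1.62 ± 0.27 (adjusted p = 0.00501), and Mag, an adhesion protein of myelin, one of 2.24 ± 0.41 (adjusted p = 0.0106). The summed marker level ran from 1575 to 13567 CPM in dissociated and from 673 to 4091 CPM in control libraries. The markers at 0 in some library were Gjb1, Aspa and Opalin, at most 2 in a library. In bulk tissue, more cells of a type and more RNA per cell cannot be told apart. Set against the markers, Adamts4 had a lowest, median and highest value of 0.496, 6.32 and 11.7 CPM per 1000 CPM of markers in dissociated libraries, against 2.89, 4.77 and 9.11 in control libraries. The same measure of Hapln2 was 0, 4.45 and 6.67 in dissociated libraries, against 2.31, 3.96 and 6.69 in control libraries. Both ranges overlapped between treatments. The part of oligodendrocyte RNA in the Adamts4 difference was not tested.

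**Figure D3:**
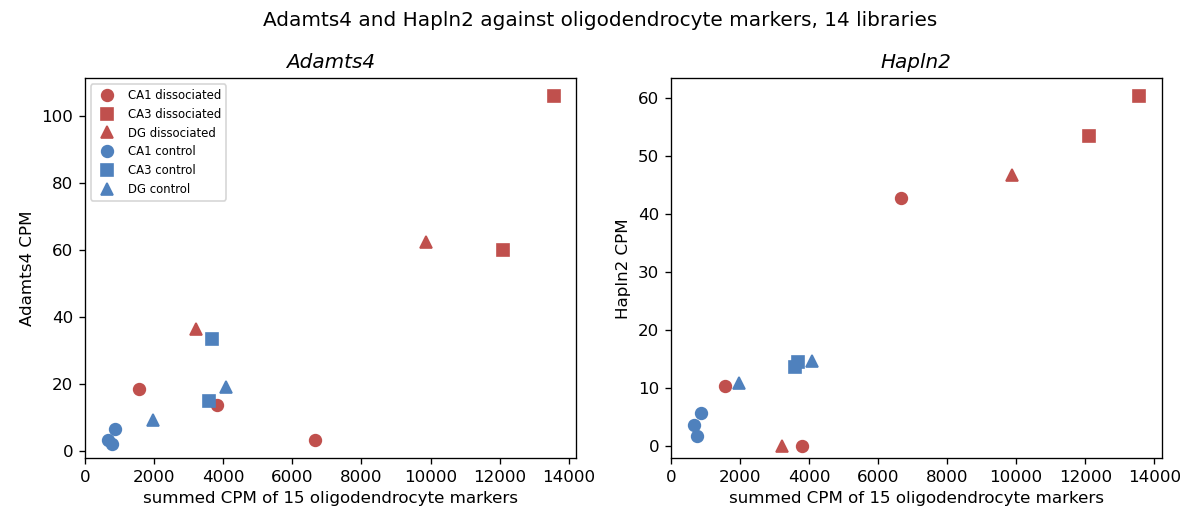
Adamts4 (left) and Hapln2 (right) in CPM on the vertical axis against the summed CPM of 15 oligodendrocyte markers on the horizontal axis, 1 point per library (red dissociated, blue control; circles CA1, squares CA3, triangles DG). Both genes reach their highest level, 106 and 60.4 CPM, in the library with the highest marker sum, 13567 CPM; the library labelled CA1 dissociated replicate 3 has 3.30 CPM of Adamts4 at 6656 CPM of markers.

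Other cell types moved too. For comparison, 12.4% of all genes had an unadjusted p under 0.05 after dissociation, and DESeq2 called 3.66%. Microglial markers were called higher for 7 of 10 (median difference 1.72), with sums from 605 to 2202 CPM in dissociated and from 278 to 511 CPM in control libraries. Of 5 markers of oligodendrocyte precursors, which express several lecticans, 1 was called higher (median 1.46), with sums from 102 to 484 CPM in dissociated and from 64.5 to 188 CPM in control libraries. Of 11 astrocyte markers edgeR called none (5 at an unadjusted p under 0.05, 1 called by DESeq2), with a median of 0.52 and sums from 2211 to 7990 CPM in dissociated and from 2527 to 4021 CPM in control libraries. Of 8 interneuron markers it called none (0 at an unadjusted p under 0.05, 0 by DESeq2), with a median of −0.29 and sums from 249.7 to 1019 CPM in dissociated and from 426 to 1249 CPM in control libraries. The part of these cells in the differences of the members was not tested.

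Between regions, Adamts4 was lower in CA1 than in either other region. It averaged 7.97 ± 6.64 CPM in CA1 libraries (SD, n = 6), 53.6 ± 39.5 CPM in CA3 libraries and 31.8 ± 23.2 CPM in DG libraries (SD, n = 4 each). CA1 was lower than CA3, with a log2 difference of −2.58 ± 0.44 (adjusted p = 0.00853), a contrast in which edgeR called 1 gene higher (0.00766%) and 14 lower (0.107%), and DESeq2 also called Adamts4. Without the 3 libraries that went against their region markers the difference was −2.23 (adjusted p = 0.0463). In control libraries alone it was −2.55 and not called (adjusted p = 0.198), and the call was lost without CA1 control replicate 2 (adjusted p = 0.0611), CA3 dissociated replicate 4 (0.0994) or CA3 control replicate 1 (0.0932). Over all alternatives the adjusted p ran from 1.20e-05 to 1.00. CA1 was also lower than DG, with a difference of −1.72 ± 0.47 (adjusted p = 0.0396), where 259 genes were called higher (1.98%) and 271 lower (2.07%). That call was lost without the libraries that went against their markers (−1.50, adjusted p = 0.0832) and in control libraries alone (−1.69, adjusted p = 0.134). Leaving out CA1 dissociated replicate 3 or CA1 control replicate 3 kept it, and leaving out any of the other 12 libraries lost it (adjusted p from 0.0526 to 0.156), with a difference that stayed between −1.96 and −1.35 in all 14 refits, within a range over all alternatives from 0.00541 to 0.215. All 15 oligodendrocyte markers were lower in CA1 than in CA3 and than in DG, with medians of −1.81 and −1.24, and 2 of them, Mbp and Mobp, were called in each contrast. Their part in the region difference of Adamts4 was not tested. Hapln2 had a CA1 to CA3 difference of −1.81 ± 0.66, which was not called (adjusted p = 0.620).

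For the other members no regional difference passed the threshold, and the largest of these differences were in Acan and Hapln4. Acan averaged 1.15 ± 1.35 CPM in CA1 libraries (SD, n = 6) and 14.9 ± 7.80 CPM in DG libraries (SD, n = 4). These means include 15.6 CPM from 1 count in DG dissociated replicate 3, and values of 0 in the shallow CA1 dissociated replicates 2 and 3. The difference of −3.13 ± 0.96 had an adjusted p of 0.0712; it was −2.92 without the libraries that went against their markers (adjusted p = 0.102), while DESeq2 called it (adjusted p = 0.0258). It was also called without CA3 dissociated replicate 4 (−3.03, adjusted p = 0.0461) or without DG control replicate 2 (−3.45, adjusted p = 0.0375), within a range of adjusted p from 0.0162 to 0.320 over all alternatives. Hapln4 averaged 113 ± 43.3 CPM in CA1 libraries (SD, n = 6), 176 ± 60.5 CPM in CA3 libraries and 37.8 ± 49.8 CPM in DG libraries (SD, n = 4 each). Its log2 difference was 1.73 ± 0.63 between CA1 and DG (adjusted p = 0.145) and 2.33 ± 0.66 between CA3 and DG (adjusted p = 0.0746), neither of them called. Interneuron markers had a median difference of 1.08 between CA1 and DG, with 6 of 8 positive, 2 negative and 1 called higher (Pvalb). Between CA3 and DG the median of these markers was 1.51, with 8 of 8 positive and 2 called higher (Pvalb and Erbb4). Their part in the region difference of Hapln4 was not tested. Without DG control replicate 2, the library with the high CA3 marker level, the Hapln4 differences were 4.00 (adjusted p = 8.76e-05) and 4.57 (adjusted p = 4.08e-05), both called. The second was also called without CA1 dissociated replicate 3 (2.41, adjusted p = 0.0462). Over all alternatives the adjusted p ran from 8.07e-05 to 0.434 for CA1 against DG and from 2.50e-07 to 0.362 for CA3 against DG. Between CA3 and DG edgeR called 116 genes higher (0.888%) and 115 lower (0.880%) and no member, as did DESeq2, and Hapln4 alone had an unadjusted p under 0.05. Adamts1 had a CA1 to DG difference of −0.88 ± 0.37, not called (adjusted p = 0.227). For Bcan, Ncan, Tnr and Hapln1, the region differences lay between −0.36 and 0.13 and none had an unadjusted p under 0.05.

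Levels were compared between genes in TPM, a kallisto measure with a common total per library that corrects for transcript length. Bcan led in both treatments, with a mean of 236 ± 158 TPM in dissociated and 220.4 ± 42.5 TPM in control libraries (SD, n = 7 each). Below it in the dissociated libraries came Ncan (74.2 TPM), Adamts1 (70.5), Tnr (45.6), Hapln4 (44.5), Hapln2 (34.0), Adamts4 (16.3), Hapln1 (7.36), Acan (2.42) and Tnc (0.689). The order in the control libraries was Bcan, Ncan (76.5 TPM), Hapln4 (74.7), Tnr (54.6), Adamts1 (39.8), Hapln2 (14.9), Hapln1 (7.10), Adamts4 (6.58), Acan (2.82) and Tnc (0.259). Only Bcan and Ncan in control libraries had ranges apart. Within libraries the order was the same in 7 of 7 for Bcan above Ncan under both treatments and for Adamts1 above Hapln2 in control libraries, and for the other neighbours in at most 6 of 7. In dissociated libraries Adamts1 was above Tnr in 3 of 7 and Tnr above Hapln4 in 2 of 7, so most libraries went against the order of means there. The dissociated mean of Adamts1 includes 218 TPM in DG dissociated replicate 4. Short transcripts weigh heavily in TPM: Bcan-002, of 381 bases, held 3.13% of the control counts of Bcan and a median of 33.9% of its control TPM.

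**Figure D4:**
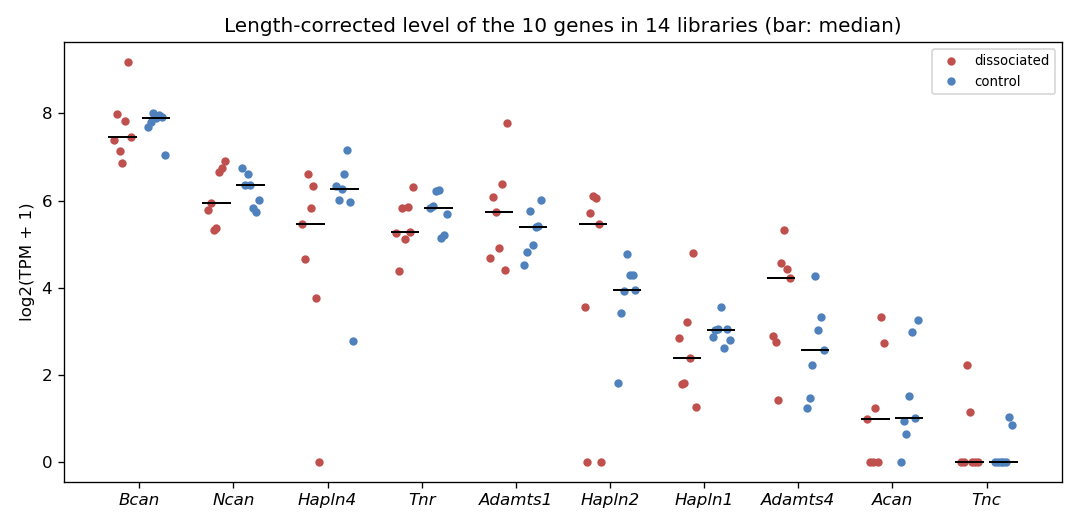
Length-corrected level of the 10 genes as log2(TPM + 1) on the vertical axis, 1 point per library (red dissociated, blue control), with bars at the median of 7 libraries; genes run from the highest to the lowest mean in control libraries. Bcan lies at the top and Tnc, with most points at 0, at the bottom, and Hapln2 and Adamts4 have higher medians in dissociated than in control libraries.

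At the level of transcripts, estimated counts pooled over libraries gave Adamts4-002, the shorter of 2 Adamts4 transcripts, 0.271% of Adamts4 counts in dissociated and 19.5% in control libraries. The longer Adamts4-001 carried 99.7% and 80.5% of the counts in dissociated and control libraries. Adamts1-002 took 13.5% of Adamts1 counts in dissociated and 5.48% in control libraries, but its median share of Adamts1 TPM per library, 12.1% in dissociated and 16.3% in control libraries, ran the other way. Tnr-001, 1 of 4 Tnr transcripts, took 99.1% in dissociated and 96.5% in control libraries. Pooled shares weigh the deepest libraries most. All are estimates from reads that transcripts of a gene share and are given without a test.

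On the chromosomes, several members lie side by side, an arrangement known for lecticans and link proteins. Bcan and Hapln2 are neighbours on chromosome 3, with 21519 bases between them, and Ncan and Hapln4 on chromosome 8, with 2222 bases between them. Acan adjoins Hapln3 on chromosome 7, Hapln1 adjoins the lectican Vcan on chromosome 13, and Adamts1 adjoins Adamts5 on chromosome 16. Treatment differences within these pairs were 0.44 for Bcan beside 1.65 for Hapln2, 0.26 for Ncan beside −0.59 for Hapln4, and 0.13 for Hapln1 beside 0.46 for Vcan (adjusted p = 0.712). Hapln3 and Adamts5 did not pass the filter on low counts. Whether counting used the strand is not given in the sources used here, so reads from a stretch shared with a gene on the opposite strand cannot be assigned, for any member.

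Of 67 tested genes of the same pathway outside the 10, edgeR called 1 after dissociation and DESeq2 called 4 (5.97%). An unadjusted p under 0.05 was found for 8 of them (11.9%), close to the 12.4% of all genes. Among 13 tested ADAMTS and ADAMTS-like genes of 22 listed, edgeR called none after dissociation (2 at an unadjusted p under 0.05, 1 called by DESeq2), with a median difference of 0.55. In 18 genes of chondroitin sulfate synthesis it called none (1 at an unadjusted p under 0.05, 0 by DESeq2; median 0.04), and in 12 other metalloproteases and inhibitors none (2 at an unadjusted p under 0.05, 1 by DESeq2; median 0.02). None of 6 genes of hyaluronan synthesis, breakdown and binding was called (0 at an unadjusted p under 0.05, 0 by DESeq2), and all 6 differences were negative, with a median of −0.38. None of 8 matrix receptors and ligands was called either (1 at an unadjusted p under 0.05, 0 by DESeq2; median −0.14), nor any of the 2 tested genes among 4 other lecticans, link proteins and tenascins (0 at an unadjusted p under 0.05, 0 by DESeq2). Of 8 other proteoglycans, edgeR called 1 (2 at an unadjusted p under 0.05, 2 called by DESeq2). Cspg5, the brain proteoglycan neuroglycan C, rose by 0.94 ± 0.22 (adjusted p = 0.0452), with a mean of 251 CPM in dissociated and 130.1 CPM in control libraries.

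**Figure D5:**
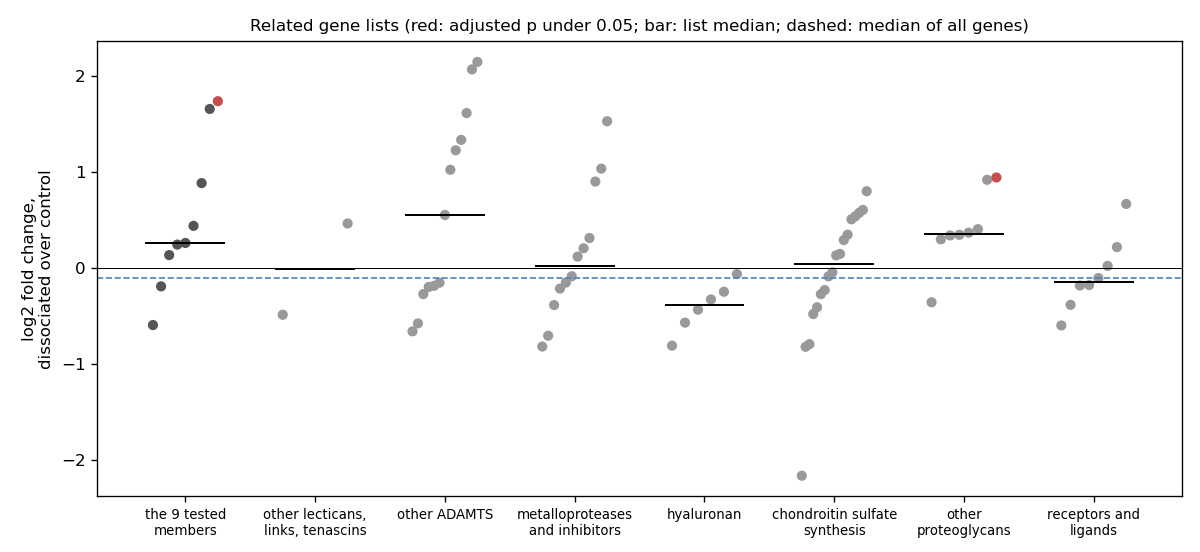
Treatment difference (log2 fold change, dissociated over control, vertical axis) of each tested gene in the member list and in 7 lists of related genes; points are genes, red where the adjusted p was under 0.05, bars are list medians and the dashed line at −0.11 is the median of all genes. The red points are Adamts4 (1.73) among the members and Cspg5 (0.94) among the other proteoglycans.

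Between regions the calls in these lists were of genes lower in the pyramidal regions than in DG. Of the 67 tested genes, edgeR called 4 between CA1 and DG, beside 530 of all 13063, and DESeq2 called 10.4% beside 7.64%. EdgeR called 2 between CA3 and DG, beside 231 of all genes, and DESeq2 called 5.97% beside 3.82%. Neither tool called any between CA1 and CA3. The calls named here were not among the 23 fold changes that were refitted. Their dependence on shallow libraries, or on those that went against their markers, was not tested. Adamts17, an ADAMTS protease, was lower in CA1 than in DG, at −3.40 ± 0.76 (adjusted p = 0.00933) and in CA3 than in DG, at −4.57 ± 0.90 (adjusted p = 0.00856). Adamts20 was lower in CA1 than in DG, at −1.65 ± 0.44 (adjusted p = 0.0324). Cemip, which takes part in hyaluronan breakdown, was lower in CA1, at −2.93 ± 0.58 (adjusted p = 0.00344) and in CA3, at −3.89 ± 0.68 (adjusted p = 0.00362), and Tmem2, a cell surface protein that also acts on hyaluronan, in CA1, at −2.02 ± 0.57 (adjusted p = 0.0443), each on the log2 scale against DG.

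Over the 14 libraries, the members most like each other were Bcan and Ncan, with a Pearson correlation of log2 CPM of 0.66, and Adamts4 correlated at 0.43 with Bcan and at 0.39 with Hapln2. Among the other tested genes whose mean reached 20 CPM, the profiles most like Adamts4 were Usp54 (0.90), Sorbs3 (0.89) and Plxnb1 (0.86). For Hapln2 they were Svip (0.90), Rhog (0.89) and Nol3 (0.88), for Hapln4 Plch2, Cacna2d3 and Bcat1 (0.96 each), and for Adamts1 Eml4 (0.90), Kdm6b (0.87) and P4ha1 (0.83). These values describe libraries that share an animal and differ in depth, and carry no test.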

How the data were processed

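RNA from 14 tissue samples of 1 mouse was sequenced. The submitters' processing notes name kallisto, cutadapt, FastQC and DESeq2 with no version; build, annotation and strand setting: not given in the sources used here. Per the file headers, the transcript tables hold kallisto's estimated counts, TPM and effective lengths (a score deposited by the authors and not used in any test). In the gene table the authors deposited estimated counts per symbol, which equal rounded transcript sums (largest difference 0.5). Near-identical copies share reads in such estimates.

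Tests on the gene counts used edgeR 4.0.16 (R 4.3.3) after filterByExpr on 6 groups (minimum count 10, minimum total 15; 13063 genes), TMM scaling and quasi-likelihood F tests. Treatment and region contrasts came from an additive model (10 residual degrees of freedom), within-region differences and their interaction from group means (8). P-values were adjusted by Benjamini-Hochberg over all genes, with a threshold of 0.05. Standard errors derive from the F statistic. CPM are scaled by TMM. TPM were summed over transcripts and, with limma 3.58.1 on log2(TPM + 1) and log2(TPM + 0.1), and counts with DESeq2 1.42.0, served as alternatives. On the log2(TPM + 1) scale changes of low genes are understated. On the log2(TPM + 0.1) scale a value of 0 lies further from the other values, so libraries at 0 weigh more.

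Named were all members, called genes of 7 related lists (at most the 4 with the smallest p per comparison) and the 3 most correlated genes of a member; Mbp, Mag, Mobp, Acta2, Pvalb and Erbb4 were picked from the marker lists after their values were seen, and so was the rule for libraries that go against their region markers (CA3 markers above CA1 markers in CA1, or under 10% of them in CA3). The members and lists were chosen with earlier results of these data known. Markers of choroid plexus, meningeal fibroblast, endothelial and pericyte cells gave no edgeR or DESeq2 call over all regions after dissociation (1, 0, 0 and 2 at an unadjusted p under 0.05); within DG both tools called the pericyte and smooth muscle marker Acta2. GENCODE M21 (GRCm38) supplied the coordinates, through gene identifiers.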

Additional observations from a re-analysis of the deposited data

How the results depend on the processing

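Of 561 refits of the 23 printed fold changes, 494 kept their direction and their side of the threshold, 34 lost a call, 14 gained one and 19 turned direction, each of the last in a difference that was not called. Most of the 23 were not called and so had no call to lose. The lost calls were all of Adamts4: 11 of 25 refits after dissociation, 6 of 24 between CA1 and CA3 and 17 of 24 between CA1 and DG. With no filter on low counts 3 members were called after dissociation (Adamts1, Adamts4, Hapln2), 3 between CA1 and DG (Acan, Adamts4, Hapln4), 1 between CA3 and DG and 1 within DG (Hapln4 in both). DESeq2 called 2 between CA1 and DG (Acan and Adamts4). Limma-trend on either TPM scale called 0 after dissociation, between CA1 and DG and between CA1 and CA3. Without the 3 shallow libraries 0 were called after dissociation and between CA1 and DG, without the 3 libraries against their markers 0 between CA1 and DG, and with control libraries alone 0 between CA1 and DG and between CA1 and CA3. Leaving out 1 library gave 0 to 2 calls after dissociation, 0 to 2 between CA1 and DG, 0 to 1 between CA3 and DG and 0 to 1 between CA1 and CA3.

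The median treatment difference of all genes was −0.11 with TMM, −0.01 with RLE and −0.64 and −0.88 with log2(TPM + 1) and log2(TPM + 0.1). On those TPM scales Bcan was −0.068 and −0.069, Ncan −0.13 and −0.13, Tnr −0.31 and −0.32 and Hapln1 −0.41 and −0.55, all above the median, and Hapln2 was −0.79 with the smaller pseudocount (−0.89 within CA1). Leaving out 1 library, Acan ran from −0.84 to 0.29 and Hapln1 from −0.32 to 0.40; without the 3 shallow libraries Hapln1 was −0.089, and without the 3 against their markers Acan was 0.057. The causes were not tested.

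Deviations from the group means of same-numbered libraries had correlations of 0.07 or lower. In CA3, with 2 libraries a group, both correlations are the same by construction, and DG had 1 shared number. These values therefore cannot settle whether the replicate numbers pair libraries. With the replicate block 2 members were called after dissociation (Adamts4 and Hapln2), 380 genes in all against 101, and region contrasts could not be fitted with it. Hapln4 within DG was 1.65 with the block. That value came from 1 pair, DG dissociated replicate 3 (2 counts) and DG control replicate 3 (62 counts). The other DG libraries had no same-numbered partner. Depth limits Acan, Tnc, Hapln1 and Hapln2, as dissociated libraries held few counts of them. It limits the called gene Adamts4 as well, which had 2, 1 and 4 counts in CA1 dissociated replicates 2 and 3 and DG dissociated replicate 3.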
